A study of Mus musculus with 4 samples.

Results

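Matricellular proteins are secreted into the extracellular matrix, where they bind collagen, growth factors and cell surface receptors without forming the load-bearing fibres themselves. Most are scarce in the healthy adult heart and are made again by activated fibroblasts and infiltrating macrophages during injury and pressure or neurohormonal overload. Fibronectin, a dimeric glycoprotein that cells stretch into fibrils through integrins, provides the early scaffold on which collagen and several of these proteins are laid down. The set described here held the periostin gene Postn, the tenascin C gene Tnc, the osteopontin gene Spp1, Cthrc1, the fibronectin gene Fn1, the SPARC family genes Sparc, Smoc2 and Fstl1, the activin-binding Fstl3 and the matrix Gla protein gene Mgp. These 10 genes were taken by symbol from a deposited table of 46603 mouse genes, and all 10 were among the 14301 genes kept for comparison because they averaged 10 reads or more per library.

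Ventricular messenger RNA of C57Bl6/J mice, 8 to 12 weeks old, had been sequenced. The groups were P2Y6 KO mice (P2Y6-null, lacking a receptor for the nucleotide UDP) given isoproterenol, P2Y6 KO mice given saline solution, WT mice given isoproterenol and WT mice given saline solution. Isoproterenol, an agonist of beta-adrenergic receptors used to provoke cardiac hypertrophy, was injected at 50 mg/kg/day for 7 days. Each group held 1 library, whether a library was 1 heart or a pool is not stated, and the libraries held 18771198 to 25637369 reads in the listed genes.

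Levels are given in CPM as deposited, that is, a gene's reads for every 1000000 reads in the library. A fold is the ratio of reads between 2 libraries after TMM scaling, with a 95% counting interval in brackets, and a difference was counted only if the interval lay entirely beyond 1.5-fold in that direction. Since no group had a second library, nothing measures the spread between hearts, and the intervals compare libraries and not conditions. P2ry6, the targeted gene, stood at 0.533 CPM in the KO isoproterenol library and 0.566 CPM in KO saline, against 5.89 CPM in WT isoproterenol and 5.11 CPM in WT saline. The ventricular cardiomyocyte gene Myl2 lay between 4603 and 8509 CPM in the 4 libraries. The atrial genes Myl7 (49.1 to 77 CPM), Myl4 (52.4 to 99.9 CPM) and Sln (11.1 to 16.4 CPM) were far below it. Nppa, also on the list of atrial markers, lay between 65.3 CPM in KO saline and 700.5 CPM in KO isoproterenol. In a bulk library, more cells of a type and more RNA per cell cannot be told apart.

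The 10 genes together took 6626 CPM of the KO isoproterenol library and 846 CPM of KO saline, and 1833 CPM of WT isoproterenol and 1131 CPM of WT saline. In CPM the KO isoproterenol library was the highest of the 4 for all 10 genes, and WT isoproterenol came second for 9. The KO saline library was the lowest for 8, WT saline for Fstl3 and WT isoproterenol for Smoc2. The first place for Smoc2 rests on the scaling. After TMM scaling it went to KO saline, with KO isoproterenol over KO saline at 0.92 (0.862 to 0.981). How often this order of libraries occurred over all genes was not counted. The saline libraries differed by more than counting error for Postn, Sparc, Fn1, Fstl1 and Mgp, but not for Tnc, Spp1, Cthrc1, Fstl3 or Smoc2.

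**Figure D1:**
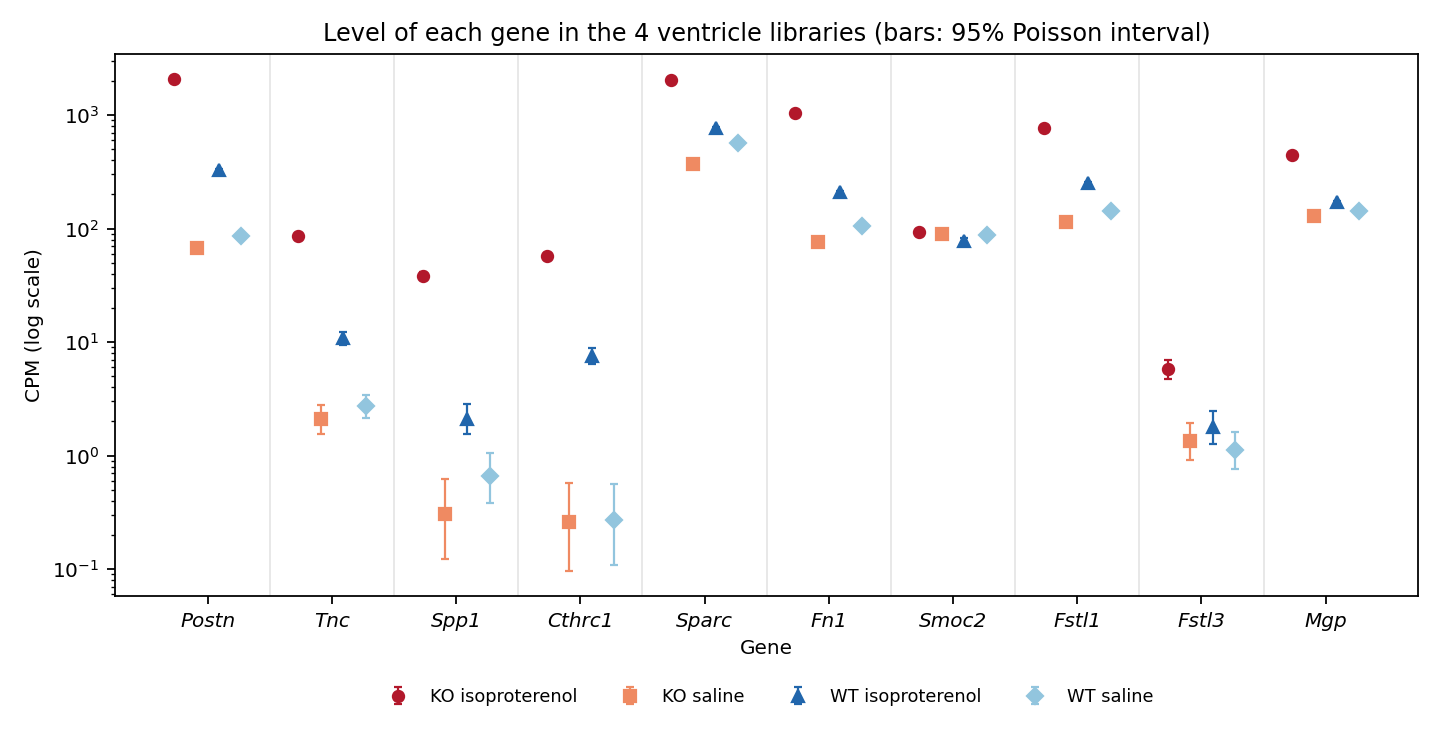
CPM (log axis) of the 10 genes in the KO isoproterenol, KO saline, WT isoproterenol and WT saline libraries, 1 point per library, with 95% Poisson intervals of the counts. In CPM, without TMM scaling, KO isoproterenol lies highest for each gene, from 2062 CPM for Postn to 5.75 CPM for Fstl3. The 4 points of Smoc2 lie between 78.2 and 92.8 CPM.

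The make-up of this summed level differed as well. Postn supplied 31.1% of it in the KO isoproterenol library and 7.9% in KO saline, and 17.9% in WT isoproterenol and 7.54% in WT saline. Sparc supplied 30.7% in KO isoproterenol and 43.6% in KO saline, and 42.2% in WT isoproterenol and 49.8% in WT saline. In the KO isoproterenol library Postn and Sparc were thus nearly level, whereas Sparc alone was the main component of the other 3. Levels per kilobase of exon allow a rough comparison of different genes. The length used holds every annotated exonic base of a gene once, over all its transcripts, and can exceed that of the transcript in use. Sparc led at 537 reads per kilobase and per 1000000 reads in KO isoproterenol, ahead of Mgp (375) and Postn (237). By that measure the first place in KO saline went to Mgp (108), ahead of Sparc (97.3). Fstl3 was last in KO isoproterenol at 2.35 and in WT isoproterenol at 0.73, and Cthrc1 was last in KO saline at 0.164 and in WT saline at 0.171.

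**Figure D2:**
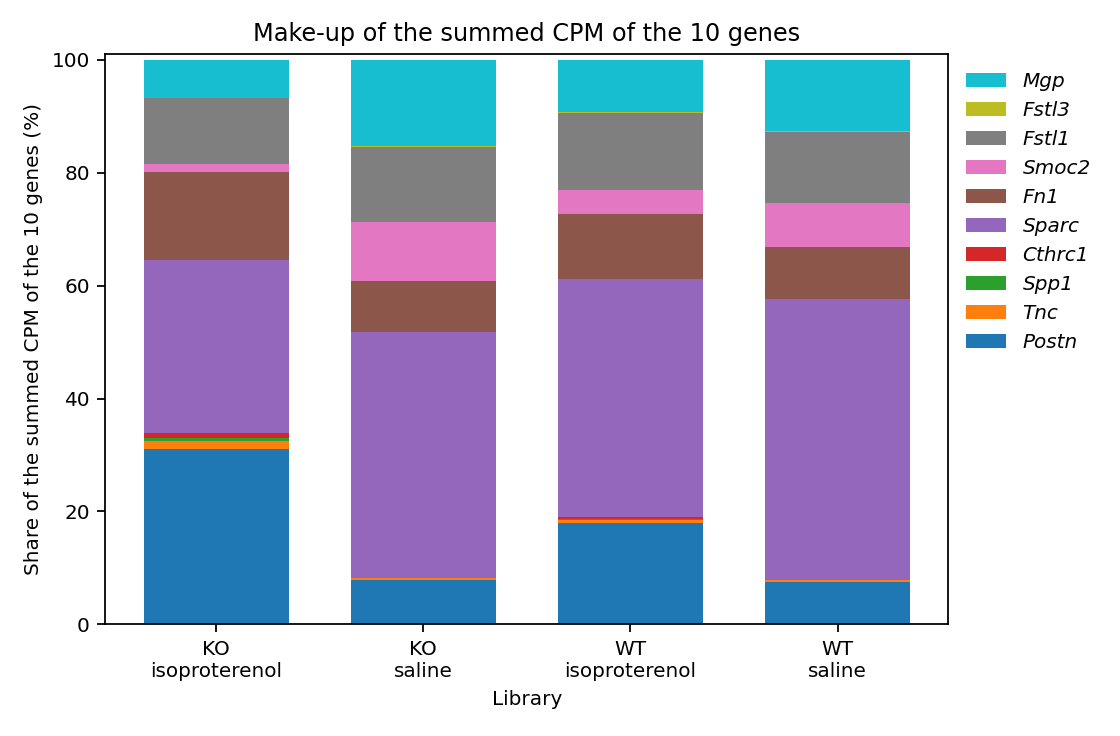
Share (%) of the summed CPM of the 10 genes that each gene supplied, 1 bar per library. The Postn share is 31.1% in KO isoproterenol and 7.9% in KO saline, and 17.9% in WT isoproterenol and 7.54% in WT saline, while the Smoc2 share is 1.4% in KO isoproterenol and 10.5% in KO saline.

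The first question was how the 10 genes stood after 7 days of isoproterenol in ventricles without P2Y6 and in WT ventricles. Isoproterenol over saline, 9 of the 10 were counted as higher in the KO pair and 6 of 10 in the WT pair, and 0 were lower in either. Of all genes, 7.09% were counted as higher and 4.22% as lower in the KO pair, and 0.86% as higher and 0.797% as lower in the WT pair. The median log2 ratio of the 10 was 3.09 in KO and 0.99 in WT, against 0.00 over all 14301 genes in both. With total-count scaling the counts of 9 and 6 were the same, although the share of higher among all counted genes became 80.2% in place of 62.7% in KO and 40.6% in place of 51.9% in WT. That scaling moved the median of all genes by 0.18 on the log2 scale in KO and by -0.08 in WT.

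Postn encodes periostin, which activated fibroblasts secrete and which binds collagen and integrins. It stood at 2062 CPM in the KO isoproterenol library and 66.8 CPM in KO saline, and at 328 CPM in WT isoproterenol and 85.3 CPM in WT saline. Both treated libraries were above both saline libraries, and no counting intervals overlapped. Its ratio was 27.2-fold (25.8 to 28.6) in KO and 4.06-fold (3.87 to 4.27) in WT. Postn lies on GRCm38 chromosome 3, 54361109 to 54391037, plus strand (ENSMUSG00000027750).

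Tenascin C, a large glycoprotein of developing and injured tissue that loosens cell adhesion, showed nearly the same proportions at a far lower level. Tnc had 85.5 CPM in KO isoproterenol and 2.09 CPM in KO saline, and 10.8 CPM in WT isoproterenol and 2.73 CPM in WT saline. Its ratio was 35.7-fold (27.1 to 49.1) in KO and 4.15-fold (3.17 to 5.53) in WT. After centring each gene on its own mean over the 4 libraries, Postn and Tnc were the closest pair among the 10, with a root mean square difference of 0.159 on the log2 scale. Tnc (ENSMUSG00000028364) is on the minus strand of chromosome 4, 63959785 to 64047015, and an antisense transcript, 8030451A03Rik, shares exonic bases with it.

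Osteopontin, the product of Spp1, is a secreted phosphoprotein that binds integrins and CD44 and is made by macrophages and fibroblasts of injured heart. Spp1 had 38.2 CPM (717 reads) in KO isoproterenol and 0.305 CPM (7 reads) in KO saline, and 2.12 CPM (44 reads) in WT isoproterenol and 0.663 CPM (17 reads) in WT saline. The KO isoproterenol library stood apart from the other 3, which all lay under 3 CPM at the upper ends of their intervals. The ratio was 103-fold (53.3 to 276) in KO and 3.32-fold (1.89 to 6.32) in WT, with wide intervals because the saline libraries held few reads. Spp1 (ENSMUSG00000029304) lies on chromosome 5, 104435118 to 104441050, plus strand. The unclassified gene Gm42793 overlaps its exons on the same strand, so its count is uncertain to that extent.

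Cthrc1 encodes a secreted protein with a short collagen-like stretch, known from injured arteries and activated fibroblasts. It had 56.9 CPM (1069 reads) in KO isoproterenol and 0.261 CPM (6 reads) in KO saline, and 7.53 CPM (156 reads) in WT isoproterenol and 0.273 CPM (7 reads) in WT saline. Both saline libraries were near the lower end of what could be counted, and both treated libraries lay well above them. The ratio of 177-fold (88 to 525) in KO ranked 3 among all 14301 genes, and that of 27.3-fold (13.8 to 73.7) in WT ranked 2. Its position is chromosome 15, 39076932 to 39087121, plus strand (ENSMUSG00000054196).

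RefSeq promoter sequences (GRCm38.p6) were at hand for 6 of the 10 genes, in 9 windows, and those of Postn, Tnc and Spp1 are shown because these genes had some of the largest ratios in KO. Each of these 3 genes has 2 RefSeq starts in the table, and the window shown is that of the start nearest to the gene start in GENCODE. Each run is the 250 bases before the transcription start, 5′ to 3′ on the gene's strand, and capitals mark matches to the motifs searched for.
Postn, chr3:54360857-54361106, plus strand: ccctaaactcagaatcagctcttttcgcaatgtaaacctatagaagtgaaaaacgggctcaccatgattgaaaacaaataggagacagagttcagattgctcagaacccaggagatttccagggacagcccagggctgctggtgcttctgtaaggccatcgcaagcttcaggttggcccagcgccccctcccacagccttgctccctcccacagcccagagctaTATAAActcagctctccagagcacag
Tnc, chr4:64047016-64047265, minus strand: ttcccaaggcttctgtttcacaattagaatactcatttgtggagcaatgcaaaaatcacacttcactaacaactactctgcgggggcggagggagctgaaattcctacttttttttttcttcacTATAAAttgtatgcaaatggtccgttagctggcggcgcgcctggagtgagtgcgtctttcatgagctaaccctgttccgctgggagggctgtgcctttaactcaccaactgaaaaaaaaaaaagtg
Spp1, chr5:104434861-104435110, plus strand: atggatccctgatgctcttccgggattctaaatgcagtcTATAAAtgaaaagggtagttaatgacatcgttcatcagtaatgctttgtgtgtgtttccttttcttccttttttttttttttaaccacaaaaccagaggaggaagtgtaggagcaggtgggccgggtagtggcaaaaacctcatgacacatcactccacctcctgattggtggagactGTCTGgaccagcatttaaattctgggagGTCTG

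The motifs were the TATA box (TATAAA), the AP-1 site (TGANTCA), the TEAD site (GGAATG), the SMAD-binding element (CAGAC) and the CArG box, each on both strands. Of all 32851 windows of this length, 12.4% held the TATA box, 6.75% the AP-1 site, 12.6% the TEAD site, 42.2% the SMAD-binding element and 1.47% the CArG box. TATAAA began 26 bases before the start in Postn, 126 bases before it in Tnc and 211 bases before it in Spp1. The Spp1 window also held the SMAD-binding element on the opposite strand, beginning 33 and 5 bases before the start, and no matches overlapped. Before the other starts, which are not shown, the SMAD-binding element began at 191 bases in Postn and 41 bases in Spp1. In Tnc it was on the opposite strand, beginning 70 bases before the other start. There it lay past the point, 171 bases into the window, where an annotated Tnc exon begins. The same TATAAA of Tnc began 205 bases before that start. These matches describe letters in the windows and not binding.

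Fibronectin stood between the strongest responders and the SPARC family. Fn1 had 1035 CPM in KO isoproterenol and 76.1 CPM in KO saline, and 209 CPM in WT isoproterenol and 105 CPM in WT saline. The treated libraries were above the saline libraries in both genotypes without overlap of the counting intervals. The ratio was 12-fold (11.4 to 12.6) in KO and 2.11-fold (2.01 to 2.22) in WT. Fn1 (ENSMUSG00000026193) lies on the minus strand of chromosome 1, 71585520 to 71653200, where the antisense gene Apol7d shares exonic bases with it.

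Among the SPARC family, Sparc encodes a collagen-binding glycoprotein that takes part in the processing of procollagen. It had 2033 CPM in KO isoproterenol and 369 CPM in KO saline, and 774 CPM in WT isoproterenol and 563 CPM in WT saline. The ratio was 4.86-fold (4.75 to 4.98) in KO, whereas that of 1.45-fold (1.42 to 1.49) in WT lay under the 1.5-fold limit although its interval excluded no change. Fstl1, a secreted glycoprotein with a follistatin-like domain, had 773 CPM in KO isoproterenol and 113 CPM in KO saline, and 251 CPM in WT isoproterenol and 143 CPM in WT saline. Its ratio was 6.03-fold (5.79 to 6.29) in KO and 1.86-fold (1.78 to 1.94) in WT. Both genes thus kept the order of the libraries seen for Postn.

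Smoc2, which encodes a calcium-binding protein of the same family that modulates growth factor signalling, did not follow this order. It had 92.8 CPM in KO isoproterenol and 88.9 CPM in KO saline, and 78.2 CPM in WT isoproterenol and 87.5 CPM in WT saline. All 4 libraries lay within a range of 78.2 to 92.8 CPM. The ratio was 0.92 (0.862 to 0.981) in KO and 0.945 (0.886 to 1.01) in WT, and with total-count scaling the KO ratio became 1.04 (0.978 to 1.11), on the other side of 1. Smoc2 was the only 1 of the 10 genes counted in none of the comparisons of 2 libraries.

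Fstl3 and Mgp, both known as binders of growth factors of the TGF-beta superfamily, had the smallest ratios among the 9 genes counted in KO. The activin and myostatin antagonist Fstl3 had 5.75 CPM (108 reads) in KO isoproterenol and 1.35 CPM (31 reads) in KO saline, and 1.79 CPM (37 reads) in WT isoproterenol and 1.13 CPM (29 reads) in WT saline. Its ratio was 3.71-fold (2.5 to 5.8) in KO, and the WT ratio of 1.66-fold (0.998 to 2.81) was not separable from no change at this depth. Fstl3 shares exonic bases with Prss57 on the other strand. Mgp, an inhibitor of tissue calcification, had 445 CPM in KO isoproterenol and 128 CPM in KO saline, and 170.5 CPM in WT isoproterenol and 143 CPM in WT saline. Its ratio was 3.06-fold (2.93 to 3.19) in KO and 1.26-fold (1.2 to 1.32) in WT, beyond counting error but not beyond 1.5-fold in WT.

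**Figure D3:**
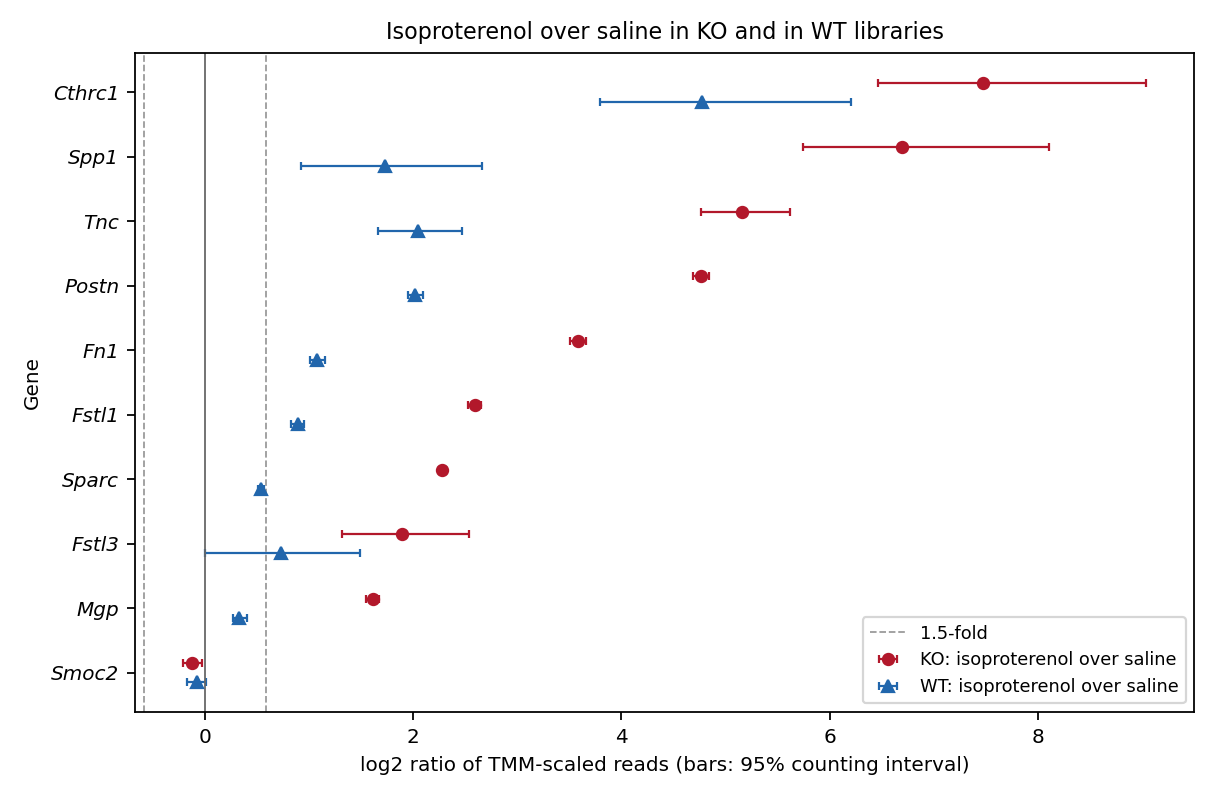
Log2 ratio of isoproterenol over saline for each gene in KO (circles) and in WT (triangles), with 95% counting intervals; dashed lines mark 1.5-fold. KO points run from 7.47 for Cthrc1 to -0.12 for Smoc2 and WT points from 4.77 for Cthrc1 to -0.08 for Smoc2.

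The second question was whether the response differed by genotype. The difference of the log2 ratios, KO minus WT, was above 0 for 9 of the 10 genes and for 49.7% of all genes. Its whole interval lay beyond 1.5-fold for 8, against a background of 3.83% of genes, with 0 lower against 1.73%. The median difference of the 10 was 2.12, against 0.00 over all genes. Spp1 had the largest difference, 4.96 (3.65 to 6.26), which ranked 5 of 14301. Tnc followed at 3.11 (2.54 to 3.67), Postn at 2.74 (2.64 to 2.84), Cthrc1 at 2.70 (1.17 to 4.24) and Fn1 at 2.50 (2.41 to 2.60). Values of Sparc (1.74), Fstl1 (1.70) and Mgp (1.28) were lower, and that of Fstl3 (1.16, interval 0.26 to 2.06) was not counted. For Smoc2 the difference was -0.04 (-0.17 to 0.09), or 0.22 (0.09 to 0.35) with total-count scaling. Under that scaling the median of all genes lay at a shift of 0.26, and 92.6% of counted genes were higher in place of 68.8%. The order of the genes was not that of the KO ratios alone, since Cthrc1 had the largest ratio in both genotypes. The design has no error term for this difference, so it was not tested.

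KO over WT under isoproterenol, 9 of the 10 genes were counted as higher, against a background of 4.2%, and 0 as lower against 1.8%, with a median log2 ratio of 1.78. The largest of these ratios was that of Spp1, 15.4-fold (11.4 to 21.6). Tnc (6.84-fold, 5.96 to 7.92), Cthrc1 (6.51-fold, 5.51 to 7.77) and Postn (5.42-fold, 5.29 to 5.57) were close to each other. Fn1 was 4.27-fold higher (4.13 to 4.41). Ratios of Fstl3 (2.76-fold, 1.9 to 4.16), Fstl1 (2.66-fold, 2.58 to 2.75), Sparc (2.27-fold, 2.22 to 2.31) and Mgp (2.25-fold, 2.17 to 2.34) were between 2.25 and 2.76. Smoc2 stood at 1.02-fold (0.956 to 1.1), or 1.19-fold (1.11 to 1.27) with total-count scaling. That scaling moved the median of all genes by 0.21, and the share of higher among all counted genes became 90.3% in place of 69.9%.

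Under saline, KO over WT, 0 of the 10 genes were counted on either side, against backgrounds of 0.273% higher and 0.217% lower. Intervals of 5 genes lay wholly below 1, as they did for 10.2% of all genes. These were Sparc, 1.48-fold lower (1.44 to 1.52), Fn1, 1.33-fold lower (1.25 to 1.41), Postn, 1.23-fold lower (1.15 to 1.32), Fstl1, 1.22-fold lower (1.16 to 1.28), and Mgp, 1.08-fold lower (1.02 to 1.13). Spp1 was 2.02-fold lower with an interval of 0.829 to 6, on 7 reads in KO and 17 in WT, so that a difference was not detectable at this depth. Cthrc1, on 6 reads in KO and 7 in WT, was at 1-fold with an interval of 0.275 to 3.44. Other matrix genes were also lower in KO, Col3a1 by 1.54-fold (1.5 to 1.59) and Col1a1 by 1.45-fold (1.39 to 1.52), and Col11a1, at 0 CPM in KO and 0.351 CPM in WT, was the 1 of 16 collagen and crosslinker genes counted as lower. Of 7 atrial markers 2 were counted as lower, Myl4 by 1.62-fold (1.51 to 1.74) and Bmp10, at 0.0435 CPM in KO and 1.37 CPM in WT, by 20.5-fold (5.09 to 1230.4). The median log2 ratio of the 7 was -0.51. Intervals also lay below 1 for Myl7, 1.52-fold lower (1.41 to 1.63), Sln, 1.42-fold lower (1.22 to 1.67), and Dkk3, 1.36-fold lower (1.22 to 1.51). Those of Nppa and Nr2f2 included 1. The 12 fibroblast, 9 activated fibroblast and 16 macrophage markers had 0 counted on either side, with medians of -0.15, -0.23 and -0.08. The part of these markers in the saline values was not tested.

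**Figure D4:**
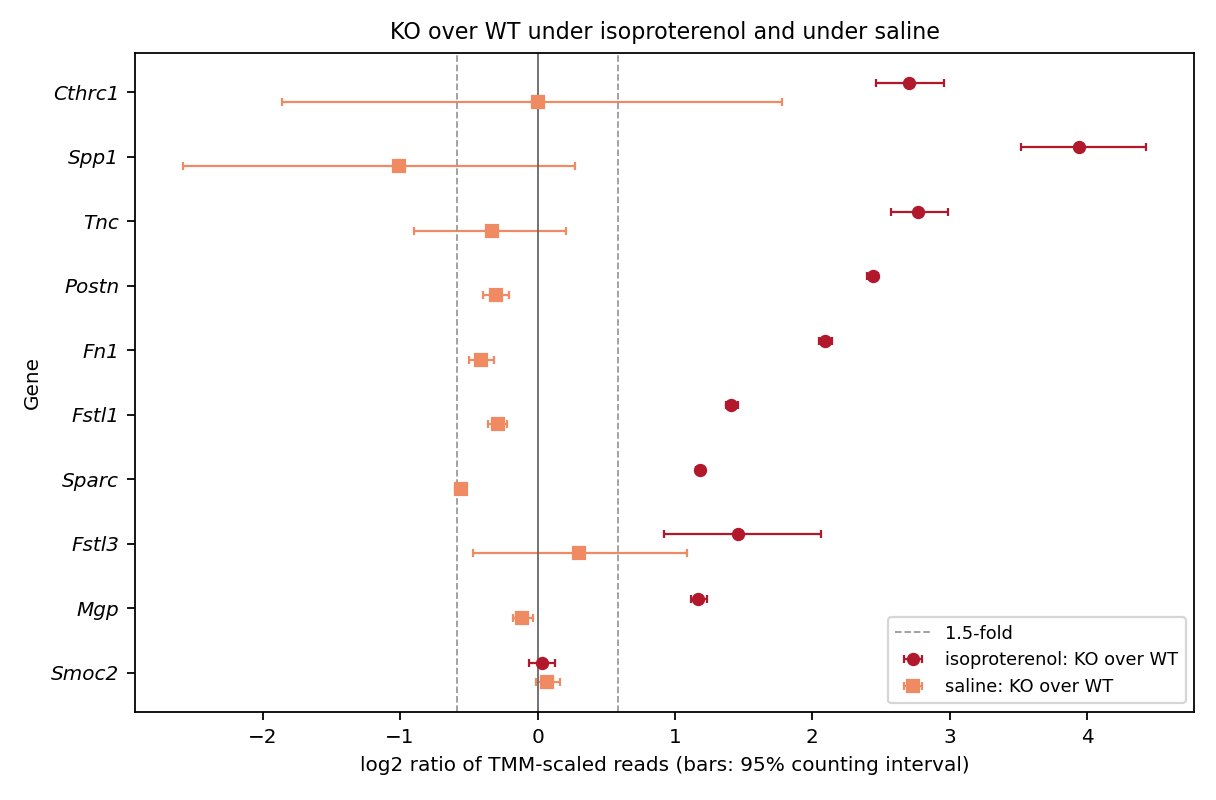
Log2 ratio of KO over WT for each gene under isoproterenol (circles) and under saline (squares), with 95% counting intervals; dashed lines mark 1.5-fold. Under isoproterenol 9 of 10 intervals lie beyond 1.5-fold, up to 3.94 for Spp1, and under saline none does, with Sparc at -0.56 and Spp1 at -1.01.

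Isoproterenol over saline across both genotypes sets 2 libraries against 2, and its additive fit leaves 1 residual degree of freedom, with the interaction as residual. In limma on log2(CPM + 1), 8 of the 10 genes were higher at an adjusted p under 0.05, against a background of 1.69%, and 0 were lower against 0.881% (0 also at an unadjusted p under 0.05, and 0 by edgeR). The difference on the log2(CPM + 1) scale was 3.43 for Postn (limma adjusted p = 3.37e-05), 4.13 for Cthrc1 (8.36e-06) and 2.37 for Fn1 (0.000647). The additive fit takes the difference of responses as residual. On TMM-scaled reads that difference was 2.74 for Postn, 2.70 for Cthrc1 and 2.50 for Fn1, so these genes depart from the additive fit. The variance that limma uses for a gene is drawn toward that of all genes. With 1 residual degree of freedom, these p-values rest mostly on the spread of other genes and not on that gene's own. No condition had a replicate library. Fstl3 (0.95, limma adjusted p = 0.0832) and Smoc2 (-0.05, 0.972) did not pass. This call depends on the fit: on TMM-scaled CPM limma called 0 of the 10, and of all genes 0 higher, with 9 of the 10 and 1079 genes higher at an unadjusted p under 0.05. Run on the recovered reads, edgeR (quasi-likelihood) called Cthrc1 alone (edgeR adjusted p = 0.00704), of 15 genes higher (0.105%) and 7 lower (0.0489%) in all.

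Some genes outside the set had patterns close to its members over the 4 libraries. Among 10433 other genes averaging 100 reads or more, Thbs4, a thrombospondin, was nearest to both Tnc (root mean square difference 0.0669 on the log2 scale) and Postn (0.208), with Timp1, an inhibitor of metalloproteinases, second for each. Thbs4 had 292 CPM in KO isoproterenol and 6.97 CPM in KO saline, and 34.8 CPM in WT isoproterenol and 8.27 CPM in WT saline. Nearest to Fn1 were Piezo2 (0.0701), Col5a2 (0.0969) and Col1a1 (0.136), nearest to Fstl1 was Col16a1 (0.0363), and nearest to Mgp was Loxl1 (0.0165). For Spp1 the nearest was Serpinb1a at 0.348, and for Cthrc1 it was Sprr1a at 0.843, the widest gap among the 10. With 4 libraries per pattern, these are descriptions of likeness only.

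Of 30 other tested matricellular and related genes, 15 were counted as higher in the KO pair and 2 in the WT pair, with 0 lower in either and medians of 0.99 and 0.25. In KO, Thbs4 was at 36.9-fold (31.6 to 43.6), Wisp1, a CCN family gene, at 9.51-fold (6.87 to 13.8), Spon2, an F-spondin relative, at 7.23-fold (5.6 to 9.6), and Aspn, the small proteoglycan asporin, at 6.94-fold (6.38 to 7.56). In WT, the 2 were Thbs4 at 4.44-fold (3.81 to 5.21) and Aspn at 2.03-fold (1.87 to 2.22). The difference of responses was counted as higher in KO for 13 of 30, with Thbs4 at 3.05 (2.74 to 3.37), Spon2 at 2.98 (2.36 to 3.61) and Comp, a pentameric thrombospondin, at 2.39 (2.04 to 2.74) on the log2 scale. Some of the 30 lay below 1 without being counted. Efemp1 was at 0.559 (0.428 to 0.723) in KO and 0.785 (0.61 to 1) in WT, and Vtn at 0.752 (0.669 to 0.843) and 0.731 (0.655 to 0.815). The tenascin X gene Tnxb was at 0.823 (0.78 to 0.868) in KO and 0.964 (0.918 to 1.01) in WT. Sparcl1, the closest relative of Sparc, was at 1.17-fold (1.14 to 1.21) and 1.09-fold (1.06 to 1.13).

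The receptors and binding partners of these proteins had 6 of 30 tested genes counted as higher in KO, 0 in WT and 0 lower in either, with medians of 0.37 and 0.09. In KO these included Sdc1, the proteoglycan syndecan 1, at 3.32-fold (2.75 to 4.03), the integrin subunits Itgb3 at 3.62-fold (2.66 to 5.07) and Itga11 at 2.5-fold (2.02 to 3.12), and the hyaluronan and osteopontin receptor Cd44 at 2.3-fold (1.97 to 2.69). Itga5, the alpha subunit of the classical fibronectin receptor, was at 1.71-fold (1.61 to 1.83) in KO and 1.07-fold (1 to 1.14) in WT. Its partner Itgb1 was at 1.32-fold (1.28 to 1.36) in KO and 0.903 (0.877 to 0.93) in WT. Below 1 but not counted, the integrin subunit Itgb6 was at 0.609 (0.518 to 0.713) in KO and 0.665 (0.574 to 0.767) in WT. Bmp6 was at 0.767 (0.668 to 0.879) in KO and 0.783 (0.68 to 0.898) in WT. Inhba, which encodes a subunit of the activin that Fstl3 binds, had 1.33 CPM in KO isoproterenol and 0.784 CPM in KO saline, and 0.241 CPM in WT isoproterenol and 0.468 CPM in WT saline. It was counted as higher in KO over WT under isoproterenol, at 4.42-fold (1.79 to 15.9), but in neither treatment pair.

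Fibrillar collagens and their crosslinking and processing enzymes had 15 of 16 genes counted as higher in KO and 7 of 16 in WT, 0 lower, with medians of 2.71 and 0.82. Lox, which crosslinks collagen, was at 42.7-fold (35.4 to 52.4) in KO and 5.24-fold (4.31 to 6.45) in WT, and Col3a1 at 11.2-fold (10.9 to 11.5) and 2.59-fold (2.53 to 2.65). Col11a1 had 51 reads in the KO isoproterenol library and 0 in KO saline, at least 18.3-fold higher from a floor of 3 reads in the saline library, and its 95% counting interval began at 14.4-fold. The procollagen proteinase Bmp1 was at 2.37-fold (2.19 to 2.56) in KO and 1.27-fold (1.17 to 1.37) in WT.

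Markers of several cell types that make these proteins differed between the libraries as well, and their part in the results was not tested. Of 12 fibroblast markers, 7 were counted as higher and 1 lower in KO and 3 higher in WT, and they summed to 3748 CPM in KO isoproterenol and 2611 CPM in KO saline, and 2969 CPM in WT isoproterenol and 2933 CPM in WT saline. Gsn, lower under isoproterenol, was a large part of these sums. It had 1020.4 CPM in KO isoproterenol and 1436 CPM in KO saline, and 1416 CPM in WT isoproterenol and 1626 CPM in WT saline. The median log2 ratio of the 12 was 0.72 in KO and 0.23 in WT. Within the list the largest ratio was that of Mfap5, a microfibril-associated glycoprotein, at 8.52-fold (7.75 to 9.41) in KO and 2.18-fold (1.97 to 2.41) in WT, larger than those of Sparc and Fstl1. Lum, the proteoglycan lumican, was at 3.6-fold (3.4 to 3.82) in KO and 1.87-fold (1.76 to 1.98) in WT, and Col15a1 at 3.33-fold (3.2 to 3.47) and 1.18-fold (1.13 to 1.22). Pdgfra and Tcf21 were at 1.44-fold (1.33 to 1.56) and 1.54-fold (1.27 to 1.88) in KO and at 1.11-fold (1.02 to 1.2) and 1.35-fold (1.1 to 1.66) in WT, and Gsn at 0.626 (0.615 to 0.637) and 0.92 (0.907 to 0.934). Of 9 markers of activated fibroblasts, 8 were higher in KO and 3 in WT, with sums of 1322 CPM in KO isoproterenol and 244 CPM in KO saline, and 406 CPM in WT isoproterenol and 332 CPM in WT saline. The exception in KO was Acta2, at 1.04-fold (0.987 to 1.09), and it was at 0.906 (0.868 to 0.945) in WT.

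For macrophages, a source of Spp1, 13 of 16 markers were counted as higher in KO and 3 in WT, with sums of 1204 CPM in KO isoproterenol and 478 CPM in KO saline, and 519 CPM in WT isoproterenol and 535 CPM in WT saline. The 3 in WT were Lgals3 at 2.82-fold (2.23 to 3.6), Gpnmb at 3.12-fold (2.17 to 4.62) and Trem2 at 2.23-fold (1.59 to 3.18), which in KO stood at 13.6-fold (10.9 to 17.3), 7.74-fold (5.71 to 10.9) and 7.72-fold (5.66 to 11). Some of the 16 lay below 1 in WT without being counted, among them Csf1r at 0.829 (0.769 to 0.893) and C1qb at 0.891 (0.821 to 0.967). In KO these were at 1.31-fold (1.22 to 1.41) and 2.35-fold (2.18 to 2.53). The median log2 ratio of the 16 was 1.26 in KO and 0.14 in WT. For smooth muscle and pericytes, which express Mgp, the 10 markers summed to between 1544 and 1692 CPM in all 4 libraries, with 2 higher and 1 lower in KO and 0 in WT. The 2 higher in KO were Cnn1 at 3.35-fold (2.74 to 4.13) and Tagln at 1.66-fold (1.54 to 1.8). Abcc9 was lower at 0.44 (0.424 to 0.457), with 205 CPM in KO isoproterenol and 409.8 CPM in KO saline, so the sum hides changes in both directions. Endothelial markers had 0 of 10 counted in either pair and summed to between 1110.2 and 1197 CPM. Epicardial markers had 1 of 6 tested genes higher in KO and summed to 19.9 CPM or less, and cartilage and valve markers had 3 of 6 higher in KO and 2 in WT, with sums of 185 CPM in KO isoproterenol and 36.6 CPM in KO saline, and 89.2 CPM in WT isoproterenol and 36 CPM in WT saline. Of these, Col2a1 was at 0 reads in KO isoproterenol and Matn1 at 0 in the other 3 libraries. Cardiomyocyte markers had 4 of 10 lower in KO and 0 in WT, with sums of 67405 CPM in KO isoproterenol and 81446 CPM in KO saline, and 77998 CPM in WT isoproterenol and 82599 CPM in WT saline. Atrial markers had 4 of 7 higher in KO and 2 in WT, the natriuretic peptide gene Nppa in both, with sums of 967 CPM in KO isoproterenol and 215 CPM in KO saline, and 308 CPM in WT isoproterenol and 301 CPM in WT saline. Nppa alone had 700.5 CPM in KO isoproterenol and 123 CPM in WT isoproterenol. In WT, Myl7 was at 0.776 (0.722 to 0.835), Myl4 at 0.824 (0.77 to 0.881) and Sln at 0.789 (0.672 to 0.924), not counted. The median log2 ratio of these markers was 0.75 in KO and -0.19 in WT. T and B cell markers (0 of 5 higher, 1 lower in KO) summed to 9.49 CPM or less and neutrophil and mast cell markers (0 of 6 in either pair) to 7.43 CPM or less, and Ly6g was at 0 in all 4 libraries.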

How the data were processed

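The deposited table holds CPM that the authors computed, each gene's reads scaled to 1000000 per library. Counting was done with HTSeq and the build was GRCm38.p4 (mm10), per the submitters' processing notes; for the aligner, annotation release and strand setting, the sources used here say nothing. Per the labels' protocols the mRNA kit was a stranded one. The pair of columns whose heading gives only a genotype was read as saline, since the other pair names isoproterenol. All values above 0 (100%) were whole multiples of the smallest in their column within 0.01 reads, and were returned to reads. Libraries held 18771198 (KO isoproterenol), 22965087 (KO saline), 20721472 (WT isoproterenol) and 25637369 reads (WT saline). TMM factors from edgeR 4.0.16 scaled the ratios, whose point value has 0.5 added to both counts, with an exact conditional (Clopper-Pearson) 95% interval. PCR copies could not be told apart without molecular identifiers, so counting error is all that the intervals and floors cover. The difference of responses has a 95% counting interval from the 4 counts. The additive fit was made in limma 3.58.1 (trend) from log2(CPM + 1), pseudocount 1, Benjamini-Hochberg over 14301 genes. The edgeR test on recovered reads, an alternative, called 22 genes. Calculations were tested on simulated data. Gene positions and exon lengths came from GENCODE M21 (GRCm38), promoters from RefSeq (GRCm38.p6). The 10 genes were given, and the lists, rules and tests were chosen, with earlier results of these data known. Named beside them were, per list, the 3 genes higher and the 3 lower with the bound farthest from no change, and the 3 genes nearest to each member in pattern; for brevity not all are printed. Apart from these and the markers, Itga5, Itgb1, Inhba, Sparcl1, Bmp1 and Tgfb1 were picked after their values were seen. Alternatives were total-count scaling, DESeq2 1.42.0 size factors, TMM without mitochondrial genes, no filter, a 2-fold limit, 1 added read, an assumed dispersion, and other limma settings.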

Additional observations from a re-analysis of the deposited data

How the results depend on the processing

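The 50 calls of the 10 genes over the 5 comparisons were set against 7 alternatives. Total-count scaling, DESeq2 size factors, TMM without mitochondrially encoded genes, no filter on low counts and 1 added read changed 0 calls. None of the 7 alternatives turned a counted gene to the other direction. Total-count scaling nevertheless moved 25 of the 50 log2 values outside their counting intervals, while each other alternative moved 0. The intervals therefore do not cover the choice of scaling. A limit of 2-fold in place of 1.5-fold dropped Spp1 and Fstl1 in WT (4 of 10 counted) and Fstl3 in KO over WT under isoproterenol (8 of 10). A negative binomial interval with an assumed dispersion of 0.05, a stand-in for spread between hearts that these data cannot measure, counted 9 of 10 in the KO pair, 3 in the WT pair (Postn, Tnc and Cthrc1), 5 in KO over WT under isoproterenol and 5 in the difference of responses, against 9, 6, 9 and 8. Over all genes, that interval counted 400.0 genes higher in KO in place of 1014, 38 in place of 123 in WT, 150.0 in place of 600.0 between treated libraries and 98 in place of 548 for the difference; the 2-fold limit gave 515, 49, 222 and 218. Genes counted as lower were 107, 26, 36 and 17 with that dispersion and 186, 35, 61 and 47 at 2-fold, in place of 604, 114, 258 and 248, and under saline 12 and 16 were higher in place of 39 and 14 and 15 lower in place of 31. Total-count scaling gave 1044 in place of 600.0 between treated libraries and 1062 in place of 548 for the difference, while genes counted as lower there became 112 in place of 258 and 85 in place of 248, and 357 in place of 604 in the KO pair. In the additive fit across genotypes the 8 of 10 genes called by limma became 9 with a pseudocount of 0.1 CPM, 8 without a filter, 0 on TMM-scaled CPM, 0 with treatment alone (7 of 10 at an unadjusted p under 0.05) and 1 by edgeR. Over all genes it called 242 higher and 126 lower, against 420.0 and 227 with a pseudocount of 0.1, 636 and 329 without a filter, 0 and 1 on TMM-scaled CPM and with treatment alone, and 15 and 7 by edgeR; the cause was not tested. No paired analysis was possible because each group holds 1 library, and for the same reason no replicate could be left out. Depth limits Spp1 and Cthrc1, with 6 to 17 reads in the saline libraries, and Fstl3, with 29 to 108 reads in the 4 libraries.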

Other observations

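Genes of TGF-beta and angiotensin signalling, both known to raise matrix gene expression in fibroblasts, had 8 of 20 genes counted as higher and 1 lower in the KO pair and 2 higher in the WT pair, with medians of 0.48 and 0.09. Ltbp2, a latent TGF-beta binding protein of elastic fibres that is also on the list of activated fibroblast markers, had 264 CPM in KO isoproterenol and 9.67 CPM in KO saline, and 30.4 CPM in WT isoproterenol and 11.8 CPM in WT saline. Its ratio was 24-fold (21 to 27.6) in KO and 2.72-fold (2.37 to 3.13) in WT. The ligand gene Tgfb3 was at 3.48-fold (3.12 to 3.91) in KO and 1.36-fold (1.2 to 1.53) in WT, and Tgfb2 at 2.04-fold (1.77 to 2.35) and 0.932 (0.789 to 1.1). Tgfb1 was at 1.35-fold (1.19 to 1.53) in KO and 1.14-fold (1 to 1.29) in WT and was counted in neither.

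Agt, the precursor of angiotensin, had a difference of responses of -0.39 (-0.91 to 0.13) on the log2 scale, with ratios of 4.27-fold (3.28 to 5.7) in KO and 5.6-fold (4.42 to 7.23) in WT. The angiotensin receptor gene Agtr1a had 23.6 CPM in KO isoproterenol and 41.8 CPM in KO saline, and 38.8 CPM in WT isoproterenol and 38.7 CPM in WT saline. Its difference of responses, -1.09 (-1.30 to -0.88) on the log2 scale, was the only 1 of the 20 counted as lower.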
